A study of Mus musculus with 21 samples.

Results

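The RNA of 7 negative regulators of mitogen-activated protein kinases was followed in cultured mouse CD8 T cells: the dual-specificity phosphatase genes Dusp2, Dusp4, Dusp5, Dusp6 and Dusp10 and the Sprouty genes Spry1 and Spry2. They were taken by symbol as the rows of these genes, 7 of the 17516 gene symbols listed for every library. The cells were OT1 CD8 T cells, whose transgenic receptor recognises an ovalbumin peptide, and all 21 libraries shared this origin. Each of 21 conditions had 1 single-cell RNA library, so there was no replicate, no test of a condition was made, and every difference below compares libraries. The conditions were naive cells on day 0, cells activated with anti-CD3/CD28 beads and held without cytokine for 3 or 5 days, and activated cells held with IL-2, IL-2v or IL-15 at 5 or 50 IU/mL for 3, 5 or 10 days. IL-2v is an IL-2 variant that the labels call mutant IL-2bg. The treatment labels of 6 libraries (50 IU/mL of IL-2 and of IL-15) name another interleukin than their titles, which set the groups here. The labels name neither the strain nor the number of mice, and 1 protocol field speaks of cells sorted from tumours while another describes this culture.

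ERK, JNK and p38 are the terminal kinases of MAP kinase cascades and are switched on by phosphorylation of a threonine and a tyrosine. Dual-specificity phosphatases remove both phosphates. Several of their genes are themselves switched on by ERK signalling, which makes them a negative feedback loop, and their RNA is widely used as a readout of the pathway. Dusp2 (also called PAC-1), Dusp4 and Dusp5 encode nuclear inducible phosphatases, and the product of Dusp5 acts on ERK alone. Dusp6 encodes a cytoplasmic phosphatase of ERK, and Dusp10 encodes one known for acting on p38 and JNK rather than on ERK. Sprouty proteins sit upstream, at the membrane, and restrain the passage from receptors through Ras to ERK. The receptors of IL-2 and IL-15 share their beta and gamma chains, and in T cells they signal through STAT5 and also through the Ras and ERK cascade.

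The libraries held 3250 to 7105 cells after filtering (106456 of 106458 barcodes) and 10589950 to 32648496 UMIs, where a UMI marks 1 captured RNA molecule. Median depth was 3016 to 5065 UMIs per cell, lowest on day 5 with 50 IU/mL IL-2. Levels are given as CPM, the UMIs of a gene after every library was scaled to the same usual total, with exact Poisson 95% intervals that cover counting error only. CPM values are compared between libraries for 1 gene and not between genes. Pairs of libraries shared 1 to 19 barcodes (210 pairs, at most 0.340% of cells). Cd3d was found in 93.0% to 99.5% of cells, whereas Cd4 was found in at most 1.49% of cells and Ncr1 in at most 0.0157%. Of the other lineage markers, Cd68 reached 7.39% of cells on day 10 with 50 IU/mL IL-2 and Klrb1c 13.0% on day 10 with 50 IU/mL IL-2v, and Cd79b was found in 0.727% to 7.45%. The summed CPM of Cd8a and Cd8b1 was highest in naive cells, at 1629, and lowest on day 10 with 50 IU/mL IL-2, at 307.6. The share of UMIs from ribosomal protein genes ran from 27.7% to 42.8%, and the share of cells with a Mki67 or Top2a UMI, taken as cycling, from 3.01% to 86.9%. Summed over their lists, markers of CD4 T cells reached at most 4.39 CPM, of myeloid cells 14.9 CPM and of NK cells 36.7 CPM, and their part in the results was not tested. No cell type that should lack these 7 genes was present to measure free RNA against.

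On GRCm38 (GENCODE vM21) Dusp2 lies at chr2:127336159-127338376, Dusp4 at chr8:34807297-34819894, Dusp5 at chr19:53529109-53542431, Dusp6 at chr10:99263231-99267489, Dusp10 at chr1:184013302-184075636, Spry1 at chr3:37639947-37644598 and Spry2, on the minus strand, at chr14:105891947-105896819. The exons of Dusp5 share 22.1% of their bases with a gene on the opposite strand, AC137853.2, and those of Spry1 share 24.4% with Gm42922. Neither partner was among the counted symbols and the sources used here do not say whether counting used strand, so the levels of Dusp5 and Spry1 are uncertain to that extent. The bases before the RefSeq start (GRCm38.p6, plus strand) are shown for Dusp5 and Dusp6, which were higher with cytokine on day 5 (Dusp6 not with 5 IU/mL IL-15), and for Dusp10, which was lower. The RefSeq start of Dusp5 lies inside the GENCODE gene, so its printed window stops short of that start, where the GENCODE gene begins. The Dusp10 window lies before a RefSeq start within the GENCODE gene and is not upstream of that gene. Capitals mark 2 CArG boxes, the sites read by serum response factor, and the short form, TGACG, of the cyclic AMP response element. The windows are chr19:53528895-53529108, chr10:99262981-99263230 and chr1:184034131-184034380.
Dusp5: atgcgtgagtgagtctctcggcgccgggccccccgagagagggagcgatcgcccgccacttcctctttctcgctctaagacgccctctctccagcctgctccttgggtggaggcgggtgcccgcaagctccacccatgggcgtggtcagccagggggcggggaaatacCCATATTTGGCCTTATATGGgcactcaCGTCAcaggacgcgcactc
Dusp6: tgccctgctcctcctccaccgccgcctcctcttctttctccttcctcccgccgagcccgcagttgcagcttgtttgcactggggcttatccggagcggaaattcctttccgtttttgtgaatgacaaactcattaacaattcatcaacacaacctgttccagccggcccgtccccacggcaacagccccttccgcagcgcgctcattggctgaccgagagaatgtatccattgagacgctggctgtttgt
Dusp10: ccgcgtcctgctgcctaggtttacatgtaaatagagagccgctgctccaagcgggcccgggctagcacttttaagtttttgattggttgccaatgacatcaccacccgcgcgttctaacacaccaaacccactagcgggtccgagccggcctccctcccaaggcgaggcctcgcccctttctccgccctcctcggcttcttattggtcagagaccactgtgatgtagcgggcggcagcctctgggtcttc
Promoter entries were found for 6 of the 7 genes, not for Dusp4. Both strands of each window were searched for the CArG box, the AP-1 site TGANTCA, the STAT site TTCNNNGAA, the ETS site CCGGAAG, the full element TGACGTCA and its short form TGACG, which lies within the full one. Dusp5 held CArG boxes at -82 to -73 and -72 to -63 and TGACG at -55 to -51, counted from the RefSeq start and not from the end of the printed window, and the other 5 windows held none of the 6 motifs. Among 32851 RefSeq promoters cut to 250 bases, 1.47% held a CArG box, 6.75% the AP-1 site, 7.02% the STAT site, 6.91% the ETS site, 1.55% the full element and 17.8% its short form. These are letter matches and say nothing of binding.

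**Figure D1:**
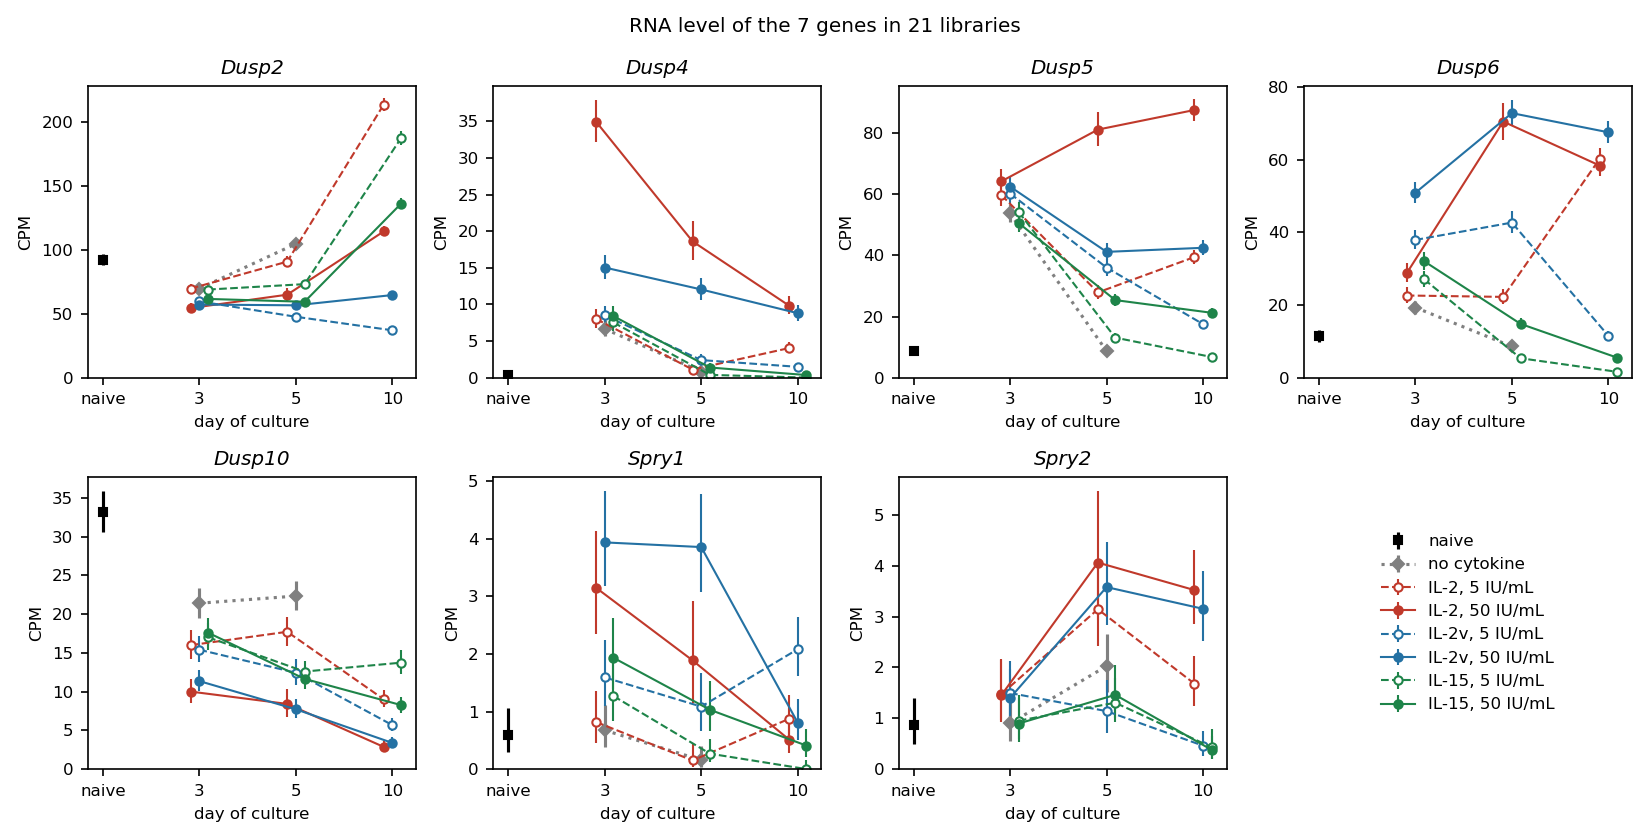
Level (CPM) of each of the 7 genes in the 21 libraries against day of culture (days at equal spacing), on an axis of its own per gene, with 95% Poisson intervals as bars, colours for cytokines, open points for 5 and filled points for 50 IU/mL. Dusp5 and Dusp6 reach up to 87.6 and 72.8 CPM after day 3, and Dusp10 lies highest in naive cells at 33.2 CPM.

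Dusp2, first found as a phosphatase of activated T cells, was present in every library and was highest on day 10 with IL-2 and with IL-15. It was 92.2 CPM in naive cells (95% interval 87.9 to 96.7), 69.7 CPM on day 3 and 105 CPM on day 5 without cytokine. At 5 IU/mL it was 69.7, 90.7 and 214 CPM on days 3, 5 and 10 for IL-2, 59.6, 47.6 and 37.0 CPM for IL-2v, and 68.9, 73.1 and 187 CPM for IL-15. With 50 IU/mL it was 54.4, 64.9 and 114 CPM for IL-2, 57.2, 56.6 and 64.6 CPM for IL-2v, and 61.6, 59.3 and 136 CPM for IL-15. The 4 highest libraries were the day 10 libraries of IL-2 and IL-15, and the lowest was the day 10 library of 5 IU/mL IL-2v, 5.77-fold below the highest. From 73.1 CPM down to 54.4 CPM the intervals of all neighbours in the order overlapped, so neighbours in the middle of that order are not ranked.

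Dusp4, which encodes a nuclear phosphatase of ERK and JNK, was highest in the 6 libraries with 50 IU/mL of IL-2 or IL-2v. Its level was 0.379 CPM in naive cells (0.152 to 0.781), 6.65 CPM on day 3 and 0.818 CPM on day 5 without cytokine. With 50 IU/mL it was 34.95, 18.6 and 9.83 CPM on days 3, 5 and 10 for IL-2, 15.0, 12.04 and 8.79 CPM for IL-2v, and 8.40, 1.37 and 0.345 CPM for IL-15. With 5 IU/mL it was 8.02, 1.10 and 4.03 CPM for IL-2, 8.49, 2.39 and 1.47 CPM for IL-2v, and 7.52, 0.368 and 0 CPM for IL-15. The day 3 library of IL-2 stood above all others, while the lowest of the 6 (8.79 CPM, 7.72 to 9.98) overlapped the next in order, the day 3 library of 5 IU/mL IL-2v. The day 10 library of 5 IU/mL IL-15 had 0 UMIs in 5451 cells. Where a fold is given for it, a floor of 3 UMIs (0.129 CPM) is set, which is not an interval.

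Dusp5, the nuclear phosphatase of ERK known to be induced by IL-2 in T cells, lay within a narrow range in all activated cells on day 3 and spread with cytokine and dose afterwards. It was 8.77 CPM in naive cells (7.47 to 10.2), 53.8 CPM on day 3 (50.8 to 56.9) and 8.69 CPM on day 5 (7.58 to 9.90) without cytokine. With 50 IU/mL it was 64.3, 81.2 and 87.6 CPM on days 3, 5 and 10 for IL-2, 62.5, 41.2 and 42.5 CPM for IL-2v, and 50.6, 25.4 and 21.2 CPM for IL-15. The 5 IU/mL values were 59.8, 27.9 and 39.5 CPM for IL-2, 60.3, 36.0 and 17.5 CPM for IL-2v, and 54.2, 13.1 and 6.73 CPM for IL-15. The 7 libraries of day 3 lay between 50.6 and 64.3 CPM, whereas those of day 5 lay between 8.69 and 81.2 CPM. Naive cells, day 5 cells without cytokine and day 10 cells with 5 IU/mL IL-15 were the 3 lowest, and the intervals of naive and day 5 cells overlapped.

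Dusp6, the cytoplasmic phosphatase of ERK, had the widest range of the 4 phosphatase genes seen in every library, 45.8-fold from lowest to highest. It was 11.4 CPM in naive cells (9.88 to 13.0), 19.3 CPM on day 3 and 8.57 CPM on day 5 without cytokine. At the higher dose it was 28.7, 70.4 and 58.3 CPM on days 3, 5 and 10 for IL-2, 50.9, 72.8 and 67.5 CPM for IL-2v, and 32.0, 14.8 and 5.49 CPM for IL-15. At the lower dose it was 22.6, 22.2 and 60.2 CPM for IL-2, 37.9, 42.7 and 11.5 CPM for IL-2v, and 27.1, 5.32 and 1.59 CPM for IL-15. The 3 highest libraries (50 IU/mL of IL-2v on days 5 and 10 and of IL-2 on day 5) overlapped as neighbours. All 4 libraries of IL-15 after day 3 lay at 14.8 CPM or less, and all other cytokine libraries but the day 10 library of 5 IU/mL IL-2v lay at 22.2 CPM or more.

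Dusp10, the p38 and JNK phosphatase, ran the other way and was highest in naive cells, at 33.2 CPM (30.6 to 35.9). Without cytokine it was 21.4 CPM on day 3 and 22.3 CPM on day 5, with overlapping intervals. With 5 IU/mL it was 16.0, 17.7 and 9.002 CPM on days 3, 5 and 10 for IL-2, 15.4, 12.4 and 5.67 CPM for IL-2v, and 17.0, 12.6 and 13.7 CPM for IL-15. At 50 IU/mL it was 10.0, 8.40 and 2.86 CPM for IL-2, 11.3, 7.71 and 3.37 CPM for IL-2v, and 17.6, 11.6 and 8.25 CPM for IL-15. All 18 cytokine libraries lay below both controls, and the 2 lowest, 50 IU/mL of IL-2 and IL-2v on day 10, had overlapping intervals.

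Spry1 and Spry2 were scarce, with 0 to 93 and 10 to 96 UMIs per library. Spry1 was 0.596 CPM in naive cells, 0.674 and 0.156 CPM on days 3 and 5 without cytokine, and highest with 50 IU/mL of IL-2v on days 3 and 5 (3.94 and 3.86 CPM) and of IL-2 on day 3 (3.15 CPM, 2.35 to 4.13). In the other 15 cytokine libraries it lay between 0, again on day 10 with 5 IU/mL IL-15, and 2.08 CPM. Spry2 was 0.866 CPM in naive cells and 0.899 and 2.03 CPM without cytokine. It was highest with 50 IU/mL of IL-2 on days 5 and 10 (4.06 and 3.52 CPM) and of IL-2v on those days (3.58 and 3.15 CPM), and lowest in the day 10 libraries of IL-15 and of 5 IU/mL IL-2v, at 0.377 to 0.459 CPM. All 20 pairs of neighbours overlapped for both genes, so neighbours in these orders are not ranked.

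Shares of cells with at least 1 UMI were taken after each cell was thinned to 2000 UMIs (0.938% to 12.1% of cells per library were shallower and left out). A cell with little of an RNA can show no UMI of it at this depth. Neither the level nor the share therefore tells fewer cells with the RNA from less RNA per cell. The thinned share ran from 7.19% to 30.4% for Dusp2, 0% to 6.63% for Dusp4, 1.37% to 15.3% for Dusp5, 0.278% to 13.0% for Dusp6 and 0.687% to 5.77% for Dusp10. It stayed under 1% for both Sprouty genes, at most 0.879% for Spry1 and 0.753% for Spry2. Unthinned, the highest shares were 49.4%, 13.8%, 34.0%, 28.4% and 11.6% for Dusp2, Dusp4, Dusp5, Dusp6 and Dusp10. The order of the libraries by thinned share followed that by CPM (Spearman rho over the 21 libraries from 0.93 for Spry2 to 0.996 for Dusp10, where both readouts come from the same counts). Unthinned, cells with Dusp2 RNA held 1.17 to 2.02 Dusp2 UMIs on average, and those with Dusp5 RNA 1.07 to 1.42. Dusp6 RNA was found in 12.6% (95% Clopper-Pearson interval 11.7% to 13.6%) of thinned cells on day 5 with 50 IU/mL IL-2v, in 2.58% with IL-15 of the same dose, and in 1.30% without cytokine. Dusp5 was found in 14.0% (12.7% to 15.3%) on day 5 with 50 IU/mL IL-2, 8.18% with IL-2v, 4.76% with IL-15 and 1.45% without cytokine.

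**Figure D2:**
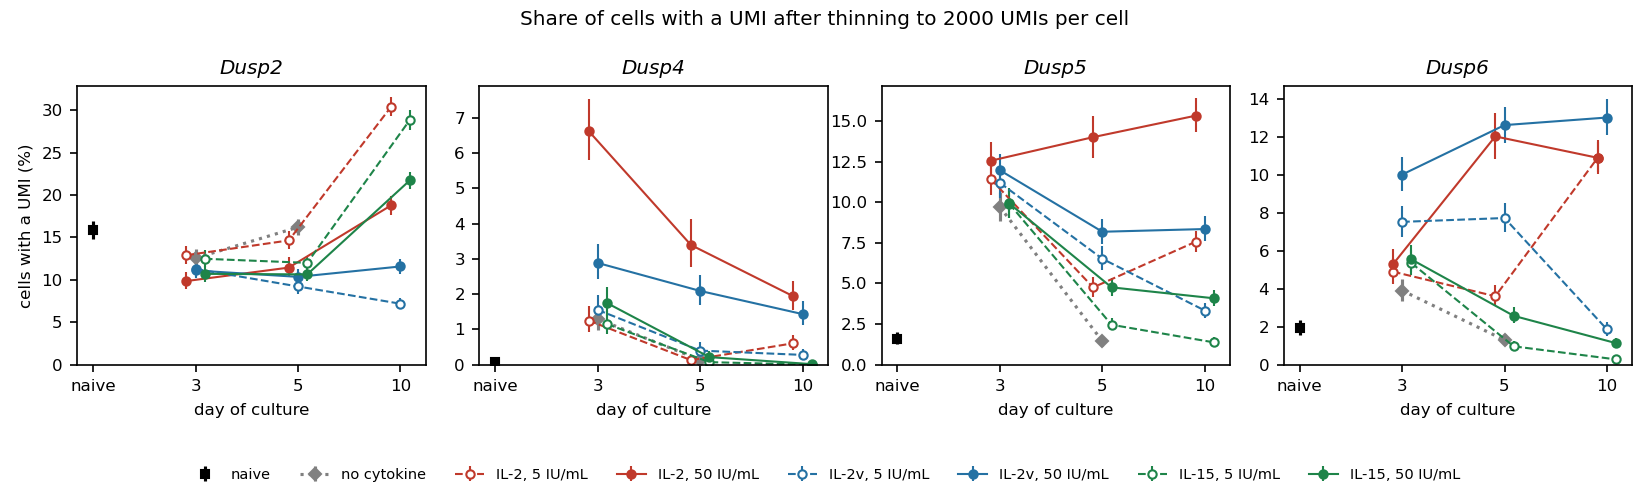
Share of cells with at least 1 UMI of Dusp2, Dusp4, Dusp5 and Dusp6 after thinning to 2000 UMIs per cell, against day of culture, with 95% Clopper-Pearson intervals as bars and the same colours and fills as in the plot of levels. Dusp2 reaches 30.4% of cells on day 10, and Dusp6 13.0%, while Dusp4 stays at 6.63% or less.

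Activation by beads was read from day 3 without cytokine against naive cells. A gene is counted here where it reached 20 CPM in either library and is called past 2-fold at a difference of at least 1 in log2(CPM + 1). Dusp5 was 6.13-fold higher on day 3 (counting interval 5.20 to 7.27, log2 difference 2.49) and was the 1 member called, of 3 that passed the level filter, where 11.1% of all 6171 genes tested were called higher and 8.31% lower. The balance turned in cells without a UMI of Mki67 or Top2a (684 higher and 513 lower became 466 and 655) and with at most 5% mitochondrial UMIs (667 and 700), and was even with totals free of ribosomal and mitochondrial genes (817 and 812). Dusp5 passed the filter through its day 3 level alone, so a called difference was close to built in. Dusp2 was 1.32-fold lower (1.23 to 1.42) and Dusp10 1.55-fold lower (1.37 to 1.75), neither past 2-fold. Dusp4 was 17.5-fold higher (8.31 to 44.4) and Dusp6 1.70-fold higher (1.43 to 2.01), both below 20 CPM in both libraries. The folds of Spry1 (1.13, interval 0.486 to 2.72) and Spry2 (1.04, 0.511 to 2.14) were not distinguishable from no difference at this depth. The share of cycling cells was 3.01% in naive cells and 59.96% on day 3, and in cells without a UMI of Mki67 or Top2a the log2 difference of Dusp5 was 2.49 as well.

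Without cytokine, Dusp4, Dusp5 and Dusp6 were lower on day 5 than on day 3, Dusp2 was higher and Dusp10 was at a like level. Dusp5 was 6.19-fold lower on day 5 (5.36 to 7.18, log2 difference -2.50) and was the 1 member called of 3 tested, where 9.47% of 5785 genes were called lower and 3.61% higher (548 and 209 genes, or 484 and 297 with scaling by TMM, a trimmed mean of ratios). As before, it passed the filter through day 3 alone. Dusp4 was 8.13-fold lower (5.13 to 13.5) and Dusp6 2.25-fold lower (1.91 to 2.66), both under the filter. Dusp2 was 1.501-fold higher (1.41 to 1.60), and the fold of Dusp10 was 1.04 (0.922 to 1.18). Cycling cells were 59.96% on day 3 and 13.8% on day 5, and in cells without a UMI of Mki67 or Top2a the log2 difference of Dusp5 was -2.62.

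Cytokine against no cytokine was read within day 3 and within day 5, and the 6 comparisons of a day share 1 control library, so their values are set side by side and not counted as separate evidence. Dusp4 was 5.25-fold higher with 50 IU/mL IL-2 (4.38 to 6.34), where 6.45% of 6030 genes were called higher and 2.74% lower (389 and 165, or 280 and 221 with TMM), and Dusp10 was 2.14-fold lower there (1.79 to 2.57). Dusp6 was 2.64-fold higher with 50 IU/mL IL-2v (2.36 to 2.95), where 7.83% of 6069 genes were called higher and 1.75% lower (475 and 106, or 283 and 194 with TMM). Dusp4 and Dusp6 passed the filter through the cytokine library alone (controls at 6.65 and 19.3 CPM), which made the call of Dusp4 close to built in, and Dusp10 passed it through the control alone (21.4 against 9.995 CPM). These 3 were all calls among members on day 3. Under the filter, Spry1 was above the control in 6 of 6 libraries, by 0.12 to 1.56 on the log2 scale (highest with 50 IU/mL IL-2v; the lowest, with 5 IU/mL IL-2, was -0.23 in cells of at most 5% mitochondrial UMIs), and Dusp4 was above it by 1.07 with 50 IU/mL IL-2v. No member was called with any cytokine at 5 IU/mL, where the shares of all genes called higher and lower were 0.142% and 0.106% (IL-2), 0.211% and 0.0704% (IL-2v), and 0.142% and 0.285% (IL-15), nor with IL-15 at 50 IU/mL, where the shares were 0.819% and 0.261%. Higher and lower genes numbered 8 and 6, 12 and 4, 8 and 16, and 47 and 15 in those 4 comparisons, or 3 and 8, 7 and 6, 5 and 18, and 27 and 23 with TMM. Dusp6 was above the control in 6 of 6 libraries, by 0.22 to 1.35 on the log2 scale, while Dusp5 lay within -0.09 to 0.25 of it and its difference with 5 IU/mL IL-15 turned from 0.01 to -0.07 under TMM. Dusp10 was below the control in 6 of 6 libraries, by -0.27 to -1.03. Dusp2 was below it in 6 of 6 as well, by -0.35 at most, but the differences with 5 IU/mL of IL-2 and of IL-15 were -0.00 and -0.02 and turned positive when CPM was averaged over single cells. The call of Dusp10 was lost with cells of at most 5% mitochondrial UMIs (log2 difference -0.94) and with a pseudocount of 10 (-0.65), and TMM scaling added a call of Dusp10 with 50 IU/mL IL-2v.

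On day 5 the ERK phosphatase genes Dusp5 and Dusp6 were higher with cytokine, apart from Dusp6 with 5 IU/mL IL-15. Dusp5 was higher than the control in 6 of 6 libraries, for IL-2 by 9.35-fold (8.06 to 10.9) at 50 IU/mL and 3.21-fold at 5 IU/mL, for IL-2v by 4.74-fold and 4.15-fold, and for IL-15 by 2.92-fold and 1.51-fold (1.27 to 1.78). Dusp6 was higher with IL-2v by 8.49-fold (7.37 to 9.82) at 50 IU/mL and 4.98-fold at 5 IU/mL, and with IL-2 by 8.22-fold and 2.59-fold. With IL-15 it was 1.72-fold higher at 50 IU/mL but 1.61-fold lower (1.31 to 1.99) at 5 IU/mL. Both genes were highest with 50 IU/mL of IL-2 and of IL-2v. Dusp5 differed between these libraries (81.2 and 41.2 CPM), and for Dusp6 their intervals overlapped (70.4 and 72.8 CPM). Calls numbered 5 for Dusp5 and 4 for Dusp6, and since the control lay at 8.69 CPM for Dusp5 and 8.57 CPM for Dusp6, each library that passed the filter of 20 CPM had to be called. Of all genes, 16.5% were called higher and 7.54% lower for IL-2 at 50 IU/mL (6022 tested), 2.14% and 0.36% for IL-2 at 5 IU/mL, 21.1% and 5.53% for IL-2v at 50 IU/mL (6389 tested), 9.75% and 2.62% for IL-2v at 5 IU/mL, 5.82% and 1.9% for IL-15 at 50 IU/mL, and 1.42% and 0.321% for IL-15 at 5 IU/mL. With TMM the calls went from 992 higher and 454 lower to 820 and 668 for IL-2 at 50 IU/mL, and for IL-2v from 1350 and 353 to 791 and 713 at 50 IU/mL and from 572 and 154 to 460 and 229 at 5 IU/mL. The share of cycling cells was 13.8% in the control and 50.4%, 66.7% and 39.8% in these 3 libraries, against 18.7% to 24.6% in the other 3.

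Dusp4, still under the filter on day 5, was above the control at 50 IU/mL by 22.7-fold for IL-2 (14.5 to 37.6) and 14.7-fold for IL-2v (9.42 to 24.2). With 5 IU/mL IL-2 its fold was 1.34, with an interval from 0.704 to 2.56 that includes no difference. Dusp2 and Dusp10 lay below the control in 6 of 6 libraries each. At 50 IU/mL Dusp10 was lower by 2.89-fold for IL-2v (2.43 to 3.46) and 2.66-fold for IL-2 (2.12 to 3.36), both called through a filter that the control alone passed (22.3 CPM), and Dusp2 was 2.20-fold lower with 5 IU/mL IL-2v (2.04 to 2.38), also called. With a pseudocount of 10 these 3 calls of lower genes were lost, and so were 2 of the 9 higher calls, Dusp6 with 5 IU/mL IL-2 (0.79) and Dusp5 with 50 IU/mL IL-15 (0.92). Spry1 was above the control by 2.07 on the log2 scale for IL-2v and 1.32 for IL-2 at 50 IU/mL, from 4 UMIs in the control. In the comparison of 50 IU/mL IL-2v with its control the median log2 difference of all genes tested was 0.30, or -0.09 with TMM, and the values of the members there are to be read against that shift. No sign of Dusp4, Dusp5, Dusp6 or Dusp10 turned on day 5 under TMM.

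**Figure D3:**
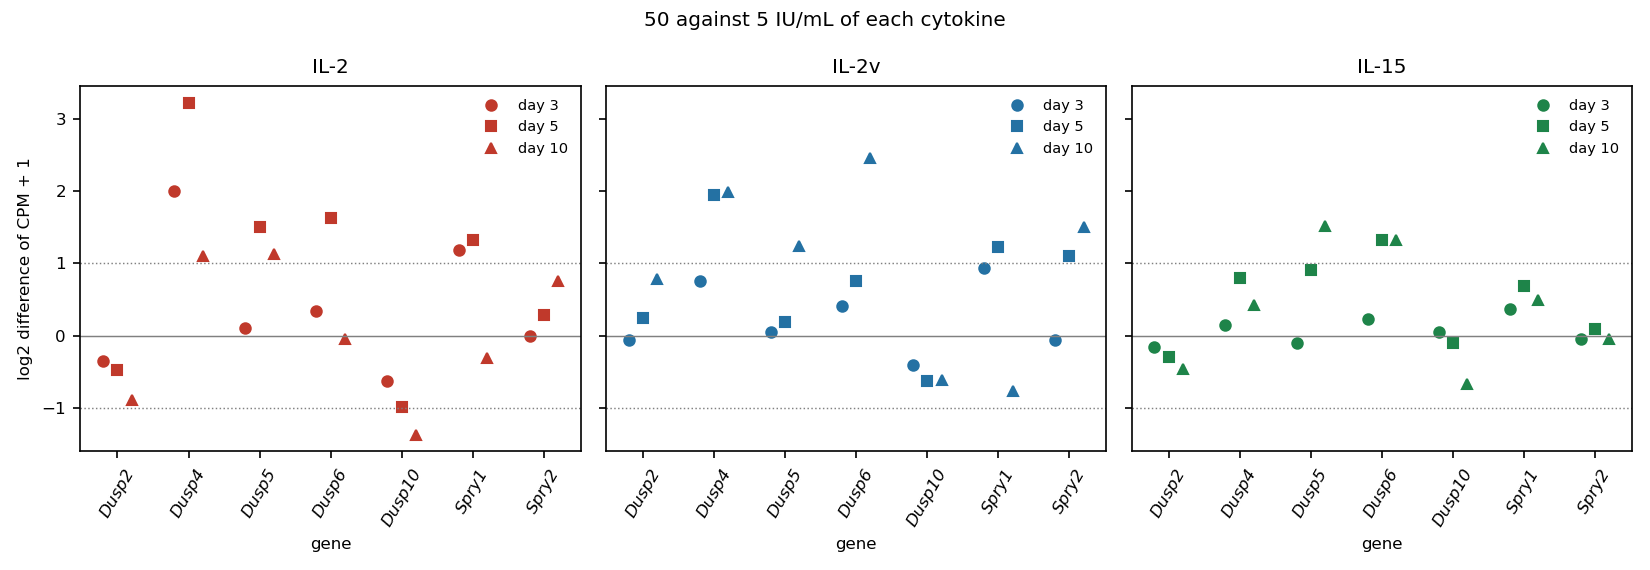
log2 difference in CPM + 1 between 50 and 5 IU/mL of the same cytokine on the same day, for each gene, with 1 point per day (circle day 3, square day 5, triangle day 10), a panel per cytokine and dotted lines at 2-fold. Dusp4 with IL-2 lies at 1.995, 3.22 and 1.11, and Dusp10 with IL-2 at -0.63, -0.99 and -1.37.

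Dose was read as 50 against 5 IU/mL of 1 cytokine on each of 3 days, and a gene was called where all 3 days had 1 sign and the median difference reached 2-fold. With more IL-2, Dusp4 was 4.36-fold higher on day 3 (3.63 to 5.26), 16.9-fold on day 5 (10.9 to 27.7) and 2.44-fold on day 10 (1.96 to 3.05). Dusp5 was 1.07-fold higher on day 3 (0.987 to 1.17), 2.91-fold on day 5 and 2.22-fold on day 10, so that its dose difference appeared after day 3 only. These were the 2 members called of 4 tested, where 4.29% of 5879 genes were called higher and 2.7% lower (252 and 159, or 275 and 268 with totals free of ribosomal and mitochondrial genes). Dusp4 passed the filter through the higher dose alone (means of 21.1 and 4.38 CPM), and without day 3 it was under the filter with a median of 2.16. Dusp5 kept its sign without each day, but its median was 0.62 without day 5 and 0.81 without day 10, and the call was lost. Dusp10 ran against Dusp4, 1.60-fold, 2.11-fold and 3.15-fold lower at the higher dose on days 3, 5 and 10. Dusp6 was 3.17-fold higher on day 5 (2.82 to 3.58) and 1.03-fold lower on day 10 (0.964 to 1.10). In cells without a UMI of Mki67 or Top2a the medians were 2.79 for Dusp4 and 1.12 for Dusp5.

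With IL-2v the dose differences of Dusp2, Dusp4, Dusp5, Dusp6 and Spry2 were each largest on day 10. For Dusp4 the day 10 value of 1.99 was close to its median of 1.94. Spry1 turned on day 10, to -0.77 on the log2 scale (0.806 against 2.08 CPM), from up to 1.22 before. On the log2 scale Dusp5 differed by 0.05 to 1.23 and Dusp2 by -0.06 to 0.79, each with its highest value on day 10. Dusp6 was 1.34-fold higher with 50 IU/mL on day 3, 1.71-fold on day 5 and 5.88-fold on day 10 (5.26 to 6.58), and its median of 0.76 was below the line of 2-fold. No member was called among 3 tested, where 2.38% of 5913 genes were called higher and 0.626% lower (141 and 37, or 101 and 57 with TMM). Without day 3 or without day 5 the median of Dusp6 was 1.61 or 1.44 and it was called. Dusp4 was higher on all 3 days (1.77-fold, 5.04-fold and 5.98-fold) but under the filter, and Dusp10 was lower on all 3 (1.36-fold, 1.61-fold and 1.68-fold). Spry2 was 6.86-fold higher on day 10 (3.94 to 12.8), at 3.15 against 0.459 CPM. With IL-15, Dusp6 was 1.18-fold, 2.78-fold and 3.46-fold higher and Dusp5 1.07-fold lower, 1.94-fold higher and 3.15-fold higher on days 3, 5 and 10. No member was called among 2 tested, where 0.869% of 5523 genes were called higher and 0.181% lower, and without day 3 Dusp5 was called at a median of 1.21, passing the filter through the higher dose alone. Dusp10 lay within 1.08-fold on days 3 and 5 with IL-15 and was 1.66-fold lower at the higher dose on day 10.

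**Figure D4:**
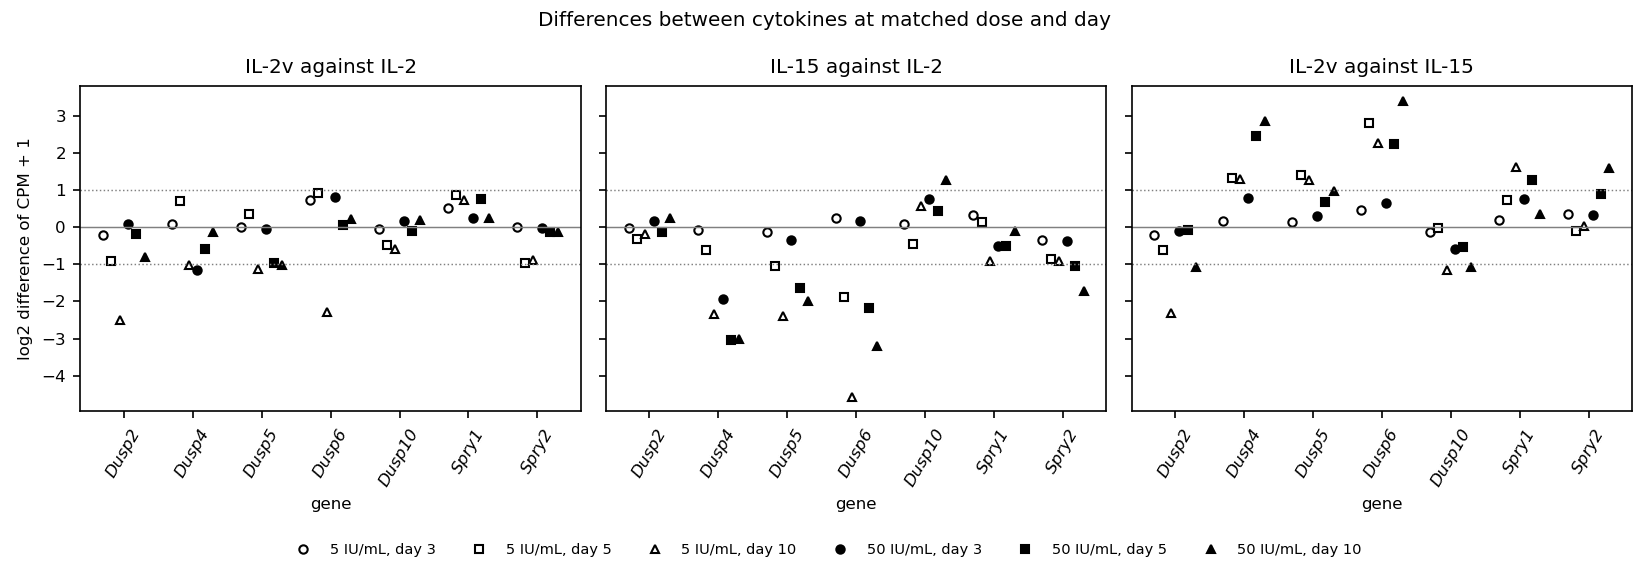
log2 difference in CPM + 1 between 2 cytokines at 1 dose on 1 day, for each gene, with 1 point per pair (open 5 and filled 50 IU/mL, circle day 3, square day 5, triangle day 10) and dotted lines at 2-fold. Dusp6 in IL-15 against IL-2 runs from 0.25 on day 3 to -4.56 on day 10.

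Cytokines were compared at the same dose and day, 6 pairs each, and the 3 comparisons share libraries. IL-15 libraries held less Dusp5 and, after day 3, far less Dusp6 than IL-2 libraries. Dusp4, under the filter, was far lower with IL-15 at 50 IU/mL on every day. Dusp5 was lower in 6 of 6 pairs, 1.10-fold and 1.27-fold on day 3, 2.13-fold and 3.20-fold on day 5, and 5.86-fold (4.96 to 6.97) and 4.13-fold (3.79 to 4.51) on day 10, at 5 and 50 IU/mL. With a median of -1.34 it was the 1 member called of 3 tested, where 1.7% of 5718 genes were called lower and 0.49% higher (97 and 28, or 102 and 52 with totals free of ribosomal and mitochondrial genes). Without day 10 its median was -0.69 and no member was called. Dusp6 was 1.20-fold and 1.12-fold higher with IL-15 on day 3, 4.17-fold and 4.77-fold lower on day 5, and 37.9-fold (27.4 to 54.0) and 10.6-fold (9.08 to 12.5) lower on day 10. The day 3 values kept it from having 1 sign in all pairs, and without day 3, where its differences run from -1.88 to -4.56, it was called, passing the filter through IL-2 libraries alone.

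Dusp4 at 50 IU/mL was 4.16-fold, 13.5-fold and 28.5-fold (15.7 to 57.7) lower with IL-15 on days 3, 5 and 10. With 5 IU/mL of IL-15 and of IL-2 it was 7.52 and 8.02 CPM on day 3, and 0.368 and 1.10 CPM on day 5. At 5 IU/mL on day 10, where Dusp4 had 0 UMIs with IL-15, it was 31.3-fold lower with that library set at the floor of 3 UMIs, without an interval. Spry2 was lower with IL-15 in 6 of 6 pairs, up to 9.35-fold (5.11 to 18.7) at 50 IU/mL on day 10. Spry1 at 5 IU/mL on day 10 was 6.79-fold lower by the same floor. Dusp2, in contrast, stayed within 1.24-fold in all 6 pairs, and its median of -0.07 turned positive with totals free of ribosomal and mitochondrial genes. Dusp10 was higher with IL-15 in every pair but that of 5 IU/mL on day 5, where it was 1.41-fold lower. At 50 IU/mL on day 10 it was 2.89-fold higher (2.23 to 3.77). Cycling cells were 18.2% and 13.4% with IL-2 and 5.21% and 13.1% with IL-15 on day 10, at 5 and 50 IU/mL, and in cells without a UMI of Mki67 or Top2a the median of Dusp5 was -1.36.

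IL-2v against IL-2 gave no member of 1 sign past 2-fold among 3 tested, where 1.04% of 5839 genes were called higher and 0.274% lower (61 and 16, or 36 and 25 with TMM). The pattern depended on dose and day. At 5 IU/mL on day 10, Dusp2 was 5.77-fold lower with IL-2v (5.43 to 6.15), Dusp6 5.24-fold lower (4.69 to 5.87), Dusp4 2.74-fold lower and Dusp5 2.26-fold lower. On days 3 and 5 at that dose Dusp6 was 1.68-fold and 1.92-fold higher with IL-2v, and at 50 IU/mL it was 1.77-fold, 1.03-fold and 1.16-fold higher on days 3, 5 and 10. Dusp5 at 50 IU/mL was 1.97-fold lower with IL-2v on day 5 (1.79 to 2.17) and 2.06-fold lower on day 10 (1.92 to 2.21), with no difference beyond counting error on day 3 (1.03-fold lower, 0.949 to 1.11). Dusp4 at 50 IU/mL was 2.33-fold lower on day 3 (2.03 to 2.66) and 1.12-fold lower on day 10 (0.935 to 1.34). Spry1 was higher with IL-2v in 6 of 6 pairs, by 0.25 to 0.86 on the log2 scale, with counts too low for the filter.

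IL-2v against IL-15 gave 1 call of 3 tested, Dusp6, where 2.48% of 5810 genes were called higher and 0.585% lower (144 and 34, or 87 and 53 with TMM and 124 and 72 with totals free of ribosomal and mitochondrial genes). Dusp6 was higher with IL-2v in 6 of 6 pairs with a median of 2.25: 1.40-fold and 1.59-fold on day 3, 8.02-fold and 4.93-fold on day 5, and 7.24-fold and 12.3-fold (10.5 to 14.4) on day 10. It passed the filter through the IL-2v libraries alone (means of 47.2 and 14.4 CPM). Dusp5 was higher in 6 of 6 pairs with a median of 0.82, and without day 3 it was called at 1.11, passing the filter through the IL-2v libraries alone. Dusp4 and Spry1 were also higher in 6 of 6 pairs, and Dusp2 and Dusp10 lower in 6 of 6, up to 5.07-fold for Dusp2 at 5 IU/mL on day 10. In cells without a UMI of Mki67 or Top2a the median of Dusp6 was 2.25.

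Time was read as day 10 against day 3 within each of the 6 cytokine conditions. No member had 1 sign in all 6 and a median past 2-fold among 3 tested, where 0.87% of 5977 genes were called higher and 7.98% lower (52 and 477, or 98 and 282 with TMM), and the median difference of all genes was -0.17, or 0.09 with TMM. Dusp2 was higher on day 10 in 5 of 6 conditions, 3.07-fold and 2.10-fold with the lower and higher dose of IL-2, 2.72-fold and 2.21-fold with IL-15 and 1.13-fold with the higher dose of IL-2v. In the remaining condition, the lower dose of IL-2v, it was 1.61-fold lower (1.49 to 1.75). Dusp6 split by cytokine, 2.67-fold and 2.03-fold higher with IL-2 and 17.0-fold (12.2 to 24.5) and 5.83-fold lower with IL-15. With IL-2v it was 3.298-fold lower at 5 IU/mL and 1.33-fold higher at 50 IU/mL. Dusp5 was lower in 5 of 6 conditions, up to 8.05-fold (6.81 to 9.57) with 5 IU/mL IL-15, and 1.36-fold higher with 50 IU/mL IL-2. Dusp4 and Dusp10 were lower in 6 of 6 conditions, Dusp10 by 1.24-fold to 3.50-fold and Dusp4 by 1.71-fold to 24.3-fold. Where Dusp4 had 0 UMIs the fold was 58.5 by the floor of 3 UMIs.

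The rest of the pathway was read from 6 lists. Of 5 other MAP kinase phosphatase genes only Dusp7, an ERK phosphatase gene, reached 20 CPM, and it was lower on activation (-1.35 on the log2 scale) and higher with 50 IU/mL IL-2v than without cytokine on day 3 (1.30) and day 5 (1.13). In the first 2 of these it passed the filter through the higher library alone (17.4 CPM on day 3 without cytokine). Of 11 atypical phosphatase genes 10 were measured and at most 3 tested in a comparison, and Dusp22 was the 1 called over several pairs, lower on day 10 than on day 3 (median -1.15, means of 16.7 and 35.2 CPM). Among 4 other Sprouty and SPRED genes measured of 5, Spred1, an inhibitor of Ras, was higher with the higher dose of IL-2v (median 1.34). The 25 genes of the ERK cascade itself, from Ras exchange factors to the kinases, gave 1 call over all comparisons of several pairs, Gab3, an adaptor, higher on day 10 than on day 3 (1.77). Of 13 genes of the JNK and p38 cascades, Mapkapk2, a kinase below p38, was higher with more IL-2 (1.17, means of 128 and 51.1 CPM) and lower with IL-15 than with IL-2 (-1.07). Of 18 ERK response genes, Fosl2, an AP-1 subunit, was higher with more IL-2 (3.17, means of 73.3 and 11.6 CPM) and more IL-2v (1.38) and lower with IL-15 than with IL-2 (-2.39), and Ier3 was lower with IL-15 than with IL-2 (-1.31). These were all 9 calls of the 6 lists over the comparisons of several pairs. Among them Dusp22, Spred1 (means of 21.04 and 8.51 CPM), Gab3 (20.7 and 5.62 CPM) and Fosl2 passed the filter through the higher arm alone, which made the calls of Spred1 and Gab3 and those of Fosl2 other than for the dose of IL-2 close to built in. For the dose of IL-2 the calls were 1 of 9 JNK and p38 genes and 1 of 7 response genes tested, beside 4.29% of all genes called higher, and for that of IL-2v 1 of 1 Sprouty and SPRED gene and 1 of 6 response genes, beside 2.38%. For IL-15 against IL-2 they were 1 of 8 JNK and p38 genes and 2 of 6 response genes, beside 1.7% lower, and for day 10 against day 3, 1 of 3 atypical phosphatase genes, beside 7.98% lower, and 1 of 21 ERK cascade genes, beside 0.87% higher.

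Against no cytokine on day 5, the lists held more calls with 50 IU/mL of IL-2 or IL-2v, where more of all genes were called too. The counts of ERK cascade genes are therefore not read as a result about that list. With IL-2, 4 of 21 ERK cascade genes tested (Sos2, Rasa2, Map2k1 and Mapk3), 4 of 8 JNK and p38 genes (Map2k3, Mapk14, Mapkapk2 and Map3k1) and 3 of 6 response genes (Fosl2, Ier3 and Myc) were called, all higher, where 16.5% of all genes were. With IL-2v, where 21.1% were, the higher calls were 3 of 21 (Sos2, Rasa2 and Mapk3), 3 of 9 (Map2k3, Mapk14 and Mapkapk2) and 3 of 6 (Fosl2, Ier3 and Myc), with Spred1, Spred2, Dusp7 and Dusp22, and Mcl1 was called lower. Fosl2, Ier3, Sos2, Spred1, Dusp22 and Spred2 passed the filter through the cytokine library alone (controls of the first 5 at 2.10, 15.6, 12.4, 3.04 and 17.4 CPM), which made the calls of Fosl2, Spred1 and Spred2 close to built in. With 50 IU/mL IL-15, Myc was the 1 call of the 6 lists (higher, 1 of 5 response genes, where 5.82% of all genes were). At 5 IU/mL the calls were Ier3 with IL-2 (higher, 1 of 5, where 2.14% were) and Myc with IL-2v (higher, 1 of 5, where 9.75% were). Ier3 again passed the filter through the cytokine library alone. Spred2 was also called higher on day 3 with 50 IU/mL IL-2 (1.59) and lower on activation (-1.24), each time passing the filter through the higher library alone, so that these calls were close to built in too. Other list genes were called there. On day 3 with 50 IU/mL IL-2 (6.45% of all genes higher) they were Mapkapk2 (1 of 9 tested) and Fosl2, Ier3 and Myc (3 of 6). On activation (11.1% higher, 8.31% lower) Mapk3 and Dusp22 were called higher and Dusp7, Rasa2, Mapk8 and Egr1 lower. Among those that passed the filter through the higher library alone were Fosl2, Ier3 and Dusp22 (4.67, 10.4 and 7.58 CPM in the other) and Mapk8.

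Across the 21 libraries the levels of Dusp4, Dusp5 and Dusp6 went together and those of Dusp10 did not go with them. Over log2(CPM + 1) Pearson's r was 0.89 for Dusp4 and Dusp5 (Spearman's rho 0.90), 0.82 for Dusp5 and Dusp6 (0.72) and 0.80 for Dusp4 and Dusp6 (0.84). The Sprouty genes were not apart from them. With Dusp4, Dusp5 and Dusp6, r was 0.74, 0.57 and 0.60 for Spry1 (rho 0.73, 0.55 and 0.60). For Spry2 it was 0.47, 0.45 and 0.68 (rho 0.56, 0.45 and 0.68). Dusp2 and Spry1 ran against each other (r -0.64, rho -0.81), Spry1 and Spry2 were nearly unrelated (0.14 and 0.11), and r of Dusp10 with the other 6 lay between -0.39 and 0.05. These are descriptions of 21 pairs of genes over libraries that share cells of origin, days and depth, and no test was made. By r over the same libraries, the genes most like Dusp5 in pattern were Avpi1 (0.95), Gyg (0.94), Aldoa, Gapdh and Chchd5 (all 0.93), and those most like Dusp6 were Trpv2 (0.94), Unc119 (0.91), Csnk2b (0.90), Atp8b4 (0.89) and Itgal (0.89). Nearest to Dusp4 were Prkcsh (0.97), Ubald2, Cdv3 and Yif1b (all 0.96) and Xbp1 (0.95), and nearest to Dusp10 were Slamf6 (0.96), Cd5 (0.94), Cbx7 (0.92), 2310001H17Rik (0.91) and Idh2 (0.91). Dusp2 had Sap30l and Chmp1a (both 0.85), Ubxn6 (0.84), Rchy1 and Cd37 (both 0.82). The scarce Spry1 had Eif3a (0.97), Exosc10, Nup54, Usp14 and Naa50, and Spry2 had Gzmc (0.85), Adam8, Pld3, Cd53 and Ltb4r1. Gapdh, Ubald2, Nup54, Aldoa, Cdv3 and Chmp1a share 10.5% to 27.4% of their exonic 50-base words with other genes, and Ubxn6, Yif1b, Usp14 and Rchy1 share 18.0% to 81.8% of exonic bases with a gene on the opposite strand, so their levels are uncertain.

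**Figure D5:**
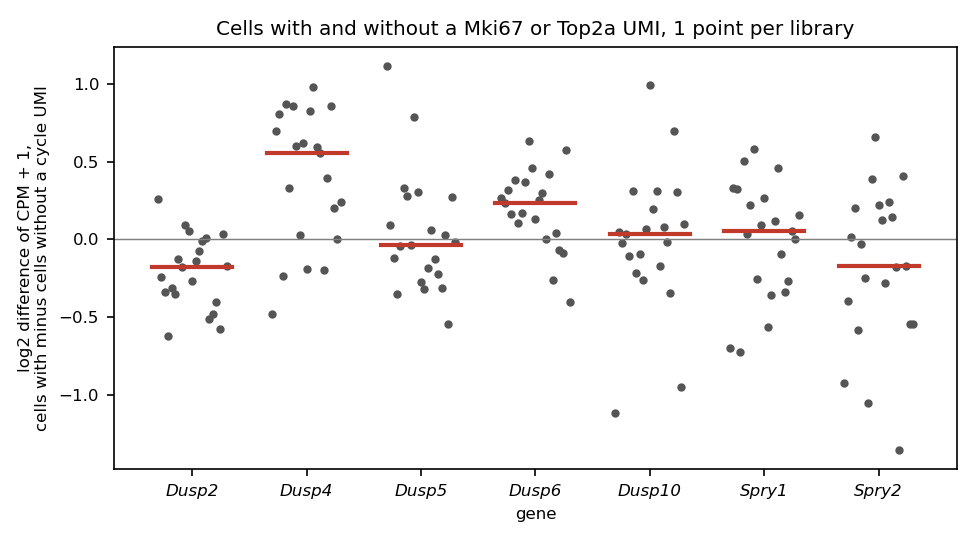
log2 difference in CPM + 1 between cells with and without a UMI of Mki67 or Top2a in the same library, for each gene, with 1 point per library (21) and the median as a bar. Dusp4 has a median of 0.56 and Dusp2 one of -0.18, and the points of every gene lie on both sides of 0.

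Within libraries no member had a median difference past 2-fold between cycling and other cells, though single libraries did. Dusp4 was higher in cycling cells in 16 of 21 libraries and lower in 4, with a median log2 difference of 0.56 (-0.48 to 0.98), and Dusp6 was higher in 17 of 21 with a median of 0.24 (-0.40 to 0.63). Dusp2 was lower in 16 of 21, with a median of -0.18 (-0.62 to 0.26). Dusp5 was higher in 9 of 21 (median -0.04, -0.54 to 1.11) and Dusp10 in 11 (median 0.03, -1.12 to 0.99). Naive cells, with 144 cycling cells, held the extremes 1.11 and -1.12, from 14 Dusp5 and 11 Dusp10 UMIs in those cells. Spry1 ranged from -0.72 to 0.58 and Spry2 from -1.35 to 0.66. After thinning to 2000 UMIs the medians were 0.50 for Dusp4, 0.17 for Dusp6 and -0.20 for Dusp2. Dusp4 was then higher in cycling cells in 13 libraries and lower in 7. Dusp6 was higher in 14 and lower in 7 (-1.82 to 0.76), and Dusp2 was lower in 17. In thinned cells Dusp5 and Dusp6 were found together more often than the product of their shares in 13 of the 15 libraries with at least 5 expected cells, with a median ratio of 1.24. Other pairs were alike, Dusp2 with Dusp6 in 19 of 20 libraries (1.15), Dusp2 with Dusp4 in 10 of 12 (1.16) and Dusp4 with Dusp5 in 8 of 11 (1.15). The median was 1.04 for Dusp4 with Dusp6, 0.99 for Dusp5 with Dusp10 and 0.95 for Dusp6 with Dusp10. For Dusp2 with Dusp10 the median ratio was 0.90 at 2000 UMIs (above 1 in 7 of 19 libraries) and 1.07 at 1000 UMIs (5 of 9). For Dusp2 with Dusp5 it was 1.17 and 0.99, so that the direction of both rests on the depth chosen. So does that of Dusp2 with Dusp4, whose median at 1000 UMIs was 0.81 (above 1 in 1 of 2 libraries). At 1000 UMIs the median was 1.06 for Dusp2 with Dusp6 (8 of 14) and 1.36 for Dusp5 with Dusp6 (10 of 12). Dusp4 with Dusp5 had 1.83 in 1 library, and fewer libraries reached 5 expected cells at that depth.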

How the data were processed

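Single-cell RNA libraries of 21 conditions were analysed, 1 per condition. The authors deposited UMI counts per gene and cell, and per the submitters' processing notes Cell Ranger, Seurat 4.0.1 and 3.0.2 and the build mm10 were used, with no role or order given. Groups follow the titles, since 6 treatment labels name another interleukin. Barcodes under 1000 UMIs or 500 genes, or above 10% mitochondrial UMIs, were dropped, no doublet caller was run, and counts were summed per library and scaled to CPM. Differences are in log2(CPM + 1) over genes with at least 20 CPM in either arm (means over pairs), and a call needs 2-fold, with 1 sign in all pairs where there are several. Without replicates no p-value was computed. Intervals are exact Poisson for levels, Clopper-Pearson for shares and conditional binomial for folds, at 95%, and cover counting error only. For each member the 5 genes most like it by r were named, and of the lists the genes called. The members and lists were chosen with earlier results of these data known. Python 3.11.15, NumPy 2.4.6, SciPy 1.17.1 and pandas 2.3.3 were used, and edgeR 4.0.16 in R 4.3.3 gave TMM factors for an alternative scaling only. The calling script was tested on simulated data. Alternatives were other cell filters, scalings, a pseudocount of 10, no level filter, and leaving out a day. Day 7 samples were not analysed here. The level of 1 lineage marker is not reported here.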

Additional observations from a re-analysis of the deposited data

Results flagged for a closer look

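Dusp6 over time moved in opposite directions with IL-2 and with IL-15. Between day 3 and day 10 its log2 difference was 1.38 and 0.998 with IL-2 at 5 and at 50 IU/mL (median 1.19) and -3.44 and -2.35 with IL-15 (median -2.89). The same gene differed in the comparison of IL-15 with IL-2 by day. On day 3 the values were 0.25 and 0.15 (median 0.20), on day 5 -1.88 and -2.18 (median -2.03), and on day 10 -4.56 and -3.19 (median -3.88). These values were picked out because every pair of one group had the opposite sign to every pair of the other, they share libraries, and the difference itself was not tested, as each condition had 1 library.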

How the results depend on the processing

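Each count of members was recomputed under the alternatives, with the counts for the lists, levels, cycling and co-detection, giving 252 values. Of these, 219 were within 1.5 times the reported count and 33 were not. A reported 0 that stayed 0 was scored as within. Alternative values of single members numbered 1400, without those on activation and without the medians by cycling. Of these, 254 moved by more than their counting error, 1146 did not, and none reversed a called direction. Called member differences numbered 21, of which the 1 on activation (Dusp5) is not in this tally. Among 192 alternative values of the others, 180 were still called. With no level filter the calls were 2 higher on activation, 3 lower on day 5 without cytokine, 1 higher for the dose of IL-2v and 1 for that of IL-15, 2 lower for IL-15 against IL-2, 2 higher for IL-2v against IL-15, 2 lower for day 10 against day 3, 5 higher for cytokine on day 3 and 34 over the pathway lists, since more genes are tested. With totals free of ribosomal and mitochondrial genes, which raise every CPM so that more genes pass the filter, they were 2 lower on day 5 without cytokine, 1 lower for the dose of IL-2 (Dusp10), 1 higher for that of IL-15 (Dusp6), 2 lower for day 10 against day 3 and 15 over the lists. With a pseudocount of 10 they were 1 higher for the dose of IL-2, 0 lower for cytokine on day 3 (reported 1), 0 lower on day 5 (reported 3) and 5 over the lists. For cytokine on day 3 there were 0 lower calls with at most 5% mitochondrial UMIs and 2 with TMM or in cells without a UMI of Mki67 or Top2a, where the lists gave 14. Without day 3, day 5 or day 10 the dose of IL-2 gave 1 higher call each, Dusp5, Dusp4 and Dusp4 (without day 3 Dusp4 was under the level filter, with a median of 2.16). Without day 3 or day 5 the dose of IL-2v gave 1 (Dusp6), and without day 3 that of IL-15 gave 1 (Dusp5), IL-15 against IL-2 gave 2 lower, against 0 without day 10, and IL-2v against IL-15 gave 2 higher. Day 10 against day 3 gave 1 higher call in the 50 IU/mL pairs alone (Dusp2) and 1 lower in the 5 IU/mL pairs alone (Dusp5). The share of all genes called changes with the setting too and is not given for most of these settings. The counts under the alternatives are therefore not read as results about the members. The alternatives for the pathway lists were chosen after seeing the data. The cause of a change was not tested where none is given. No paired analysis was run. Each condition had 1 library, with no replicate numbers to link samples, and the pairs above are matched conditions, given by sign and size without a test. Depth limits what can be read for Spry1 and Spry2, with at most 93 and 96 UMIs in a library, and neighbours in their orders are not ranked.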
